A study of Homo sapiens with 9 samples.

Results

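FAT3, TMEM64, PHLPP2, FZD6, LBR, GJA1, TSC22D3, ZNF778 and CHSY1 are 9 protein-coding genes whose nuclear RNA lay on opposite sides of the control after knockdown of dyskerin and after knockdown of GAR1. They are 9 of the 18444 genes with enough reads to be tested, and all 9 passed that filter. The genes were selected on the differences between the groups compared here, so their own fold changes are given as a description and without a test. The measurements that the selection did not use are those of their families, pathways and chromosomal neighbours. Against siControl, 8 of the genes were higher after dyskerin knockdown and lower after GAR1 knockdown. FAT3 alone had the opposite order.

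Dyskerin, encoded by DKC1, and GAR1 are core proteins of the H/ACA ribonucleoprotein, in which a guide RNA directs dyskerin to convert chosen uridines of ribosomal and spliceosomal RNA to pseudouridine. The same proteins bind telomerase RNA. The 9 genes have no common pathway: their products include a giant cadherin, a Wnt receptor, a gap junction subunit, a chondroitin synthase, an inner nuclear membrane protein, a phosphatase and regulators of transcription.

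Nuclear RNA was sequenced from U2OS cells, a human osteosarcoma line, after transfection for 48 h with 15 nM of siDyskerin, siGAR1 or siControl, with 3 biological replicates per group and 9 libraries. All groups shared the cell line, the transfection reagent and the nuclear fractionation, and no group was left untransfected. Each knockdown was made with 1 siRNA reagent from a different supplier than siControl, so the effect of losing the target and any other effect of the reagent cannot be told apart. One cell line was used, so the replicates measure the spread between cultures of U2OS.

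The libraries held 48838756 to 90698675 summed transcript reads, and their normalization factors ran between 0.982 and 1.02. DKC1 had 3075, 3124 and 3099 normalized counts in the siDyskerin libraries, against 20937, 22716 and 20777 in the siControl libraries. GAR1 had 92.3, 83.9 and 115 normalized counts in the siGAR1 libraries, against 598, 594 and 664 in the siControl libraries. Both targets were thus depleted in every library labelled with their siRNA. The marker levels that follow are the TPM of the most-read transcript of each gene. The summed TPM of 12 bone and mesenchymal markers, led by VIM, was 413 to 461 in siDyskerin, 423 to 431 in siGAR1 and 449 to 491 in siControl, while COL1A2 and TWIST1, which mark bone-forming and mesenchymal cells, were at or near 0. The summed TPM of 9 epithelial markers was 95.2 to 99.2 in siDyskerin, 76.6 to 103 in siGAR1 and 63.2 to 69.9 in siControl. This sum was led by KRT8 (30.8 to 48.1 TPM over all libraries) and KRT18 (31.4 to 63.7 TPM). EPCAM, CDH1 and CLDN4 did not exceed 0.508, 0.175 and 0.385 TPM, and KRT19, ESRP1, GRHL2 and CLDN7 were at or near 0. The sum was higher in both knockdowns, and its part in the results was not tested. Summed leukocyte markers did not exceed 0.0606 TPM in any library.

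The counts behind each gene are reads summed over its annotated transcripts, scaled to the mean library. In 1529 pairs of transcripts from 1185 genes in which the shorter lies inside the longer with the same splicing, the longer had at least as many reads throughout. Shared reads were thus counted for each compatible transcript, and a gene's counts serve to compare groups and not to compare genes. The selection corresponds to a value under 0.01 of the adjusted p given by edgeR (quasi-likelihood F-test) in both knockdowns, each against siControl, with opposite direction. It was met by 11 genes, 0.0596% of those tested: the 9 genes and PHGDH and ALDH1L2. The members closest to the threshold were TMEM64 and PHLPP2, whose larger adjusted p from the edgeR fit was 0.00998 and 0.0081. Just outside it were CNN1 and PCBP4, both at 0.0106, and PLCH1 at 0.0128. CNN1 and PCBP4 were higher after dyskerin knockdown and lower after GAR1 knockdown, and PLCH1 had the order of FAT3. All 9 genes kept both directions in each of 17 alternative analyses, but leaving out 1 library at a time left only 2 to 6 of them past the threshold in both knockdowns, with 2 left (FAT3 and GJA1) without siDyskerin replicate 2.

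FAT3 (ENSG00000165323.16; GRCh38 chromosome 11, 92224818 to 92896473, plus strand) encodes an atypical cadherin of very large size, related to the Drosophila protein Fat. It had 771, 786 and 762 normalized counts in siDyskerin, 2704, 2412 and 2260 in siGAR1, and 1453, 1397 and 1448 in siControl. The 3 groups did not overlap, and the siDyskerin libraries were the lowest. The log2 fold change was -0.89 ± 0.08 (standard error) for siDyskerin minus siControl and 0.78 ± 0.08 for siGAR1 minus siControl. Between the knockdowns the log2 difference was -1.67 ± 0.08, the largest in size among the 9 genes.

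FZD6 (ENSG00000164930.12; chromosome 8, 103298433 to 103332866, plus strand) encodes Frizzled-6, a seven-pass Wnt receptor known for its part in planar cell polarity and hair patterning. Its normalized counts were 11348, 12480 and 12094 in siDyskerin, 5682, 5844 and 6109 in siGAR1, and 8411, 9621 and 9282 in siControl. Every siDyskerin library was above every siControl library, and every siGAR1 library was below. The log2 fold change was 0.40 ± 0.07 for siDyskerin minus siControl, -0.63 ± 0.07 for siGAR1 minus siControl and 1.03 ± 0.07 for siDyskerin minus siGAR1.

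GJA1 (ENSG00000152661.9; chromosome 6, 121435595 to 121449727, plus strand) encodes connexin 43, the gap junction subunit of bone, heart and many other tissues. It had 2747, 2833 and 2788 normalized counts in siDyskerin, 1618, 1591 and 1609 in siGAR1, and 2037, 2055 and 2099 in siControl. Its libraries were close to each other within each group, with SDs of 43.1, 13.7 and 32.2 counts. The log2 fold change was 0.43 ± 0.06 for siDyskerin minus siControl, -0.36 ± 0.06 for siGAR1 minus siControl and 0.80 ± 0.06 for siDyskerin minus siGAR1.

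CHSY1 (ENSG00000131873.7; chromosome 15, 101175727 to 101252048, minus strand) encodes chondroitin sulfate synthase 1, which extends the sugar chains of cartilage and matrix proteoglycans. Its normalized counts were 3183, 3230 and 2976 in siDyskerin, 2020, 1841 and 1837 in siGAR1, and 2506, 2453 and 2430 in siControl. It was the gene with the smallest difference between the knockdowns, 0.72 ± 0.07 on the log2 scale. Its shifts from siControl were almost equal in size, 0.35 ± 0.07 for siDyskerin and -0.37 ± 0.07 for siGAR1.

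LBR (ENSG00000143815.15; chromosome 1, 225401502 to 225428925, minus strand) encodes the lamin B receptor, an inner nuclear membrane protein that tethers heterochromatin and also acts as a sterol reductase in cholesterol synthesis. It had 10630, 11289 and 11361 normalized counts in siDyskerin, 5573, 5637 and 6508 in siGAR1, and 8052, 8672 and 8546 in siControl. The third siGAR1 library was the highest of its group and still lay below all siControl libraries. The log2 fold change was 0.40 ± 0.07 for siDyskerin minus siControl, -0.51 ± 0.07 for siGAR1 minus siControl and 0.91 ± 0.07 for siDyskerin minus siGAR1.

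PHLPP2 (ENSG00000040199.18; chromosome 16, 71637835 to 71724701, minus strand) encodes a phosphatase that removes the activating phosphate from the kinase AKT. Its normalized counts were 8342, 7977 and 8383 in siDyskerin, 4443, 4374 and 4358 in siGAR1, and 6947, 6779 and 6920 in siControl. Of the 9 genes it had the smallest shift after dyskerin knockdown, with a log2 fold change of 0.26 ± 0.06 for siDyskerin minus siControl. The log2 fold change was -0.65 ± 0.06 for siGAR1 minus siControl and 0.91 ± 0.06 for siDyskerin minus siGAR1.

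TSC22D3 (ENSG00000157514.18; chromosome X, 107713221 to 107777342, minus strand) encodes GILZ, a leucine zipper protein induced by glucocorticoids. It had 719, 847 and 875 normalized counts in siDyskerin, 318, 287 and 338 in siGAR1, and 514, 495 and 410 in siControl. Its log2 fold change was 0.78 ± 0.11 for siDyskerin minus siControl and -0.60 ± 0.12 for siGAR1 minus siControl. Between the knockdowns the log2 difference was 1.37 ± 0.12, the largest of the 8 genes that were higher in siDyskerin, and its standard errors were the largest of the 9 genes.

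TMEM64 (ENSG00000180694.14; chromosome 8, 90621995 to 90791632, minus strand) encodes a multi-pass membrane protein that in mouse has been linked to osteoclast and osteoblast differentiation. Its normalized counts were 3635, 3848 and 3444 in siDyskerin, 1717, 1675 and 1663 in siGAR1, and 2926, 2867 and 3109 in siControl. The gene leaned to one side: its log2 fold change was 0.30 ± 0.07 for siDyskerin minus siControl, against -0.82 ± 0.07 for siGAR1 minus siControl. The difference for siDyskerin minus siGAR1 was 1.11 ± 0.07 on the log2 scale.

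ZNF778 (ENSG00000170100.14; chromosome 16, 89217703 to 89237141, plus strand) encodes a zinc finger protein with a KRAB domain, a domain that in many such proteins recruits the corepressor TRIM28. It had 3486, 3507 and 3350 normalized counts in siDyskerin, 1854, 1629 and 1959 in siGAR1, and 2684, 2714 and 2384 in siControl. The log2 fold change was 0.41 ± 0.08 for siDyskerin minus siControl, -0.52 ± 0.08 for siGAR1 minus siControl and 0.93 ± 0.08 for siDyskerin minus siGAR1. As for the other genes, no library of one group overlapped those of another.

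**Figure D1:**
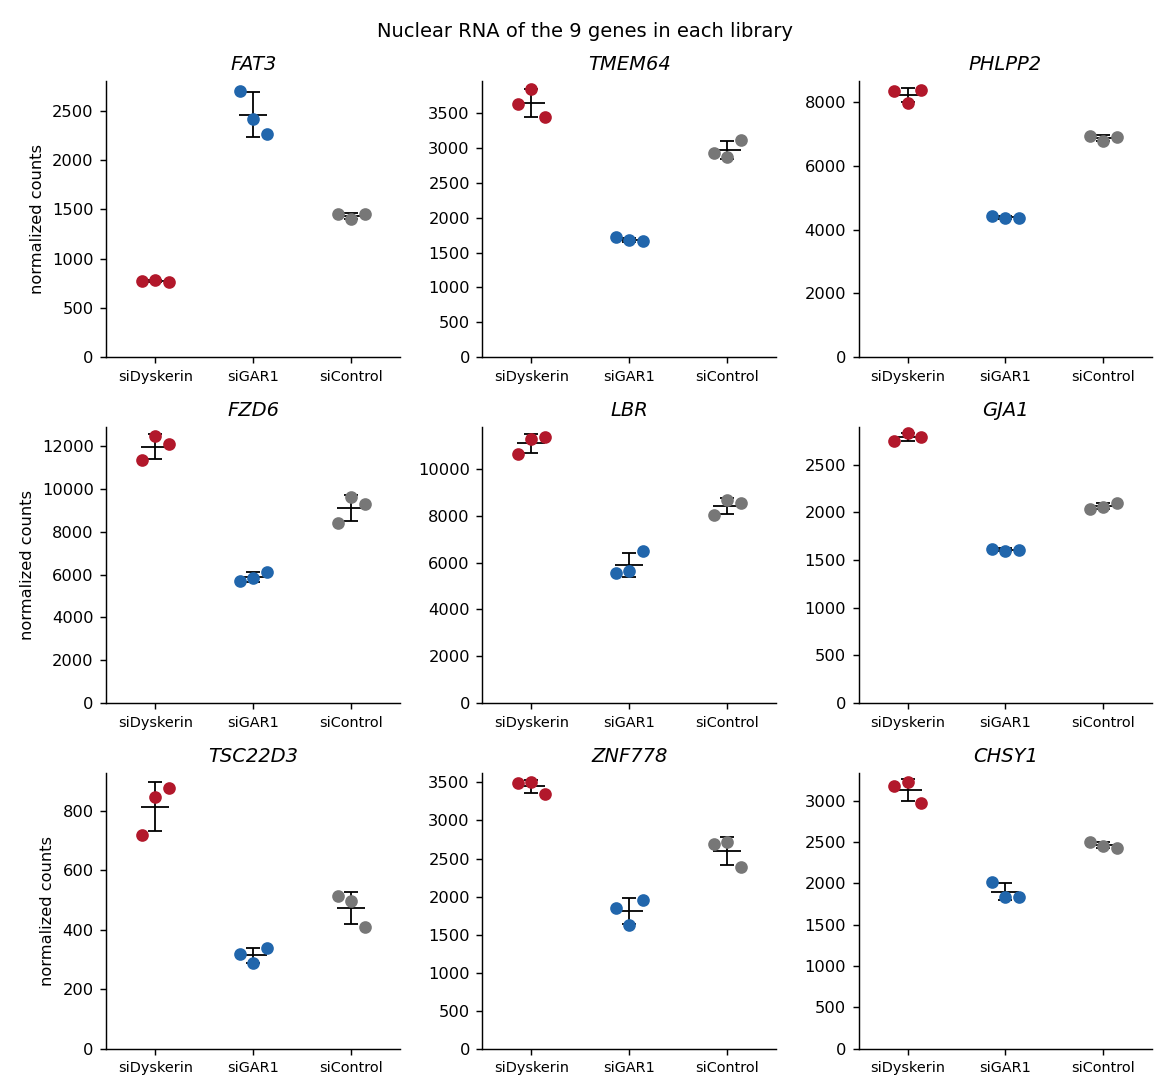
Normalized counts (vertical axes, from 0) of the 9 genes in the siDyskerin, siGAR1 and siControl libraries. Each point is 1 library and the bars give the mean and SD of 3. In all 9 panels the siControl libraries sit between the knockdowns, and only FAT3 has siDyskerin at the bottom.

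In all 9 genes, every siControl library lay between the libraries of the 2 knockdowns. Over all genes tested, 0.927% had every siDyskerin library above and every siGAR1 library below the siControl libraries, and 0.775% had the opposite order. Called genes, at an adjusted p under 0.01 from edgeR's quasi-likelihood test, were more frequent after dyskerin knockdown than after GAR1 knockdown: 3.08% of the genes tested were higher and 3.32% lower in siDyskerin than in siControl, and 1.63% were higher and 1.79% lower in siGAR1 than in siControl. Between the knockdowns, 2.61% were higher and 2.78% lower in siDyskerin than in siGAR1. Since these contrasts chose the genes, nothing is read from the members' count against these shares.

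The shifts from siControl were moderate. None of the 9 genes passed an absolute log2 fold change of 1 against siControl in either knockdown. Between the knockdowns, FAT3, TMEM64, FZD6 and TSC22D3 passed it, as did 0.721% of the genes tested (adjusted p under 0.01 from edgeR as well). The siDyskerin shift was the larger in 3 genes (FAT3, GJA1 and TSC22D3) and the siGAR1 shift in 6. The genes therefore did not all have the same balance of the opposed shifts: TMEM64, PHLPP2 and FZD6 differed from siControl mainly after GAR1 knockdown, while GJA1 and CHSY1 were close to symmetric. These differences of balance were not tested.

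**Figure D2:**
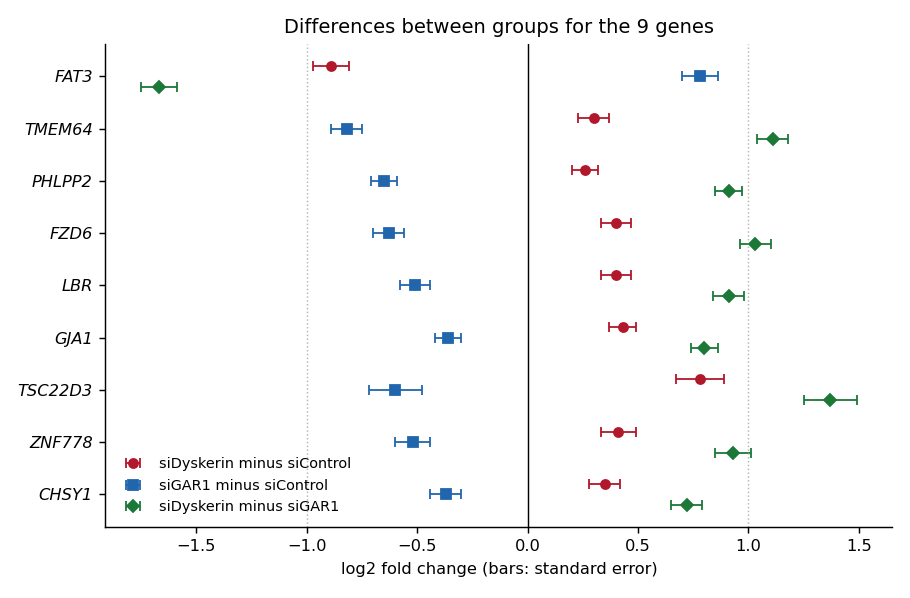
Log2 fold changes of the 9 genes (horizontal axis) for siDyskerin minus siControl (circles), siGAR1 minus siControl (squares) and siDyskerin minus siGAR1 (diamonds), with standard errors from the edgeR fit. Dotted lines mark an absolute log2 fold change of 1, which only the difference between the knockdowns passes, in FAT3, TMEM64, FZD6 and TSC22D3.

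The genes differed in level and structure. Per length, the most-read transcript of LBR was the most abundant, with 24.8 ± 0.46 TPM in siDyskerin, 12.6 ± 1.34 in siGAR1 and 18.8 ± 0.624 in siControl (SD, n = 3). That of FAT3 was the least abundant, with 0.204 ± 0.00276 TPM in siDyskerin, 0.594 ± 0.0518 in siGAR1 and 0.359 ± 0.0108 in siControl. In siControl, GJA1 had 11.2 TPM, FZD6 8.02, TMEM64 7.44, CHSY1 5.15, PHLPP2 3.61, ZNF778 1.52 and TSC22D3 0.66, in that order below LBR and above FAT3. The SDs of FZD6 and TMEM64, neighbours in this order, were 0.517 and 0.164 TPM. The median of the 9 most-read transcripts was 5.15 TPM in siControl, against 2.03 TPM over the protein-coding genes tested. Gene spans ran between 14133 bases for GJA1 and 671656 bases for FAT3, and the most-read transcripts had 2 exons (GJA1) to 28 exons (FAT3), so neither a long span nor many exons was shared.

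Promoter sequence is shown as a description and because transcript starts matter for TSC22D3 below. RefSeq windows of build GRCh38.p14 were found for 6 of the 9 genes, with 9 windows in all. The 250 bases before each start were searched. No window was found for FAT3, TMEM64 or FZD6. Those of TSC22D3, GJA1, PHLPP2 and CHSY1 are printed 5′ to 3′ on the strand of the gene, only as far as the first annotated exon of the gene, with matches to the motifs listed in the next paragraph in capitals. The stretches of TSC22D3 and GJA1 shown hold no match.
TSC22D3: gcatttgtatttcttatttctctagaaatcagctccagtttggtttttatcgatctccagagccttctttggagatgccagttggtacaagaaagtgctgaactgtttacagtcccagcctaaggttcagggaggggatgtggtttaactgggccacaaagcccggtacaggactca
GJA1: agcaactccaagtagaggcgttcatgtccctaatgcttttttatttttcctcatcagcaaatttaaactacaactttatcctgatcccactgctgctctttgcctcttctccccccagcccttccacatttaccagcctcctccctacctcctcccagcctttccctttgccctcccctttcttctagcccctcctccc
PHLPP2: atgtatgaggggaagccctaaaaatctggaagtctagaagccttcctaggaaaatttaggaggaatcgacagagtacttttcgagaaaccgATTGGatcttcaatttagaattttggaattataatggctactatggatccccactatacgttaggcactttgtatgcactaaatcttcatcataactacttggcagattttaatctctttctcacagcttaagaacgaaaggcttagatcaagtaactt
CHSY1: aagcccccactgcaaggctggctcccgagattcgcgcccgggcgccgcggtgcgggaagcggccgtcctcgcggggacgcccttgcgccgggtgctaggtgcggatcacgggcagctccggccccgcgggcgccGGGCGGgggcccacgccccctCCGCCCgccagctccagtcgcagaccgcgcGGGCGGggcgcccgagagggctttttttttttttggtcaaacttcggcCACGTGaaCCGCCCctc
The TSC22D3 stretch (chrX:107717136-107717312, minus strand) ends where the most-read transcript TSC22D3-206 begins. The GJA1 stretch is chr6:121435396-121435594 on the plus strand, the PHLPP2 stretch chr16:71724702-71724951 on the minus strand, and the CHSY1 stretch chr15:101252049-101252298 on the minus strand, the last 2 ending at the start of the most-read transcript of the gene.

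The windows were unlike each other in base composition. In the 250 bases before the start, G and C made up 74.8% in CHSY1, 71.6% in ZNF778, 48.0% in GJA1, 48.0% in the TSC22D3 window shown, 37.2% in PHLPP2 and 36.8% in LBR, against a median of 58.0% over 35116 windows. The other TSC22D3 windows, at its other starts, held 71.2%, 66.4% and 68.4%. The GC box, searched as GGGCGG on both strands, was found in 2 of the 6 genes (CHSY1, with 4 matches, and TSC22D3, in windows of its other starts) and in 42.6% of all windows. CCAAT was found in 1 gene, PHLPP2, and in 32.0% of windows, and TGACG in 2 genes and 21.2% of windows. The TATA box TATAAA was found in TSC22D3 alone, the E-box CACGTG in CHSY1 alone and CCGGAAG, a core of ETS factor sites, in ZNF778 alone, against 10.7%, 6.34% and 8.52% of windows. TGANTCA, the AP-1 site, was found in LBR and GJA1 and in 6.57% of windows. A gene was counted if any of its windows held a match, and TSC22D3 had several windows, whereas the shares are per window. No motif of those searched was held by more than 2 of the 6 genes, and a match in these letters is no evidence of binding.

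The 9 genes had 66 annotated transcripts in the tables, of which 53 had a mean of at least 10 reads and 9 were listed at 0 in every library. Of the 53, 52 had group means in the order of their gene, and in 45 of these the libraries of the 3 groups did not overlap. Transcripts of a gene share most of their reads, so these counts are not independent. The genes were also selected on the sum of these reads, so agreement with the gene follows largely from the selection. No share over the transcripts of other genes is given. With this limit, the order was seen in 33 of 33 protein-coding transcripts and in 8 of 8 annotated to be removed by nonsense-mediated decay. It was also seen in 5 of 5 with no defined reading frame and in 6 of 7 with a retained intron. These classes share reads, so nothing is read from their agreement. The exception was CHSY1-205, a short transcript with a retained intron, whose groups did not overlap but had the reverse order. It had 15.2, 16.6 and 14.1 reads in siDyskerin, 32.6, 24.2 and 33.3 in siGAR1, and 17.0, 17.0 and 18.4 in siControl, and was thus highest in siGAR1, where CHSY1 itself was lowest.

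**Figure D3:**
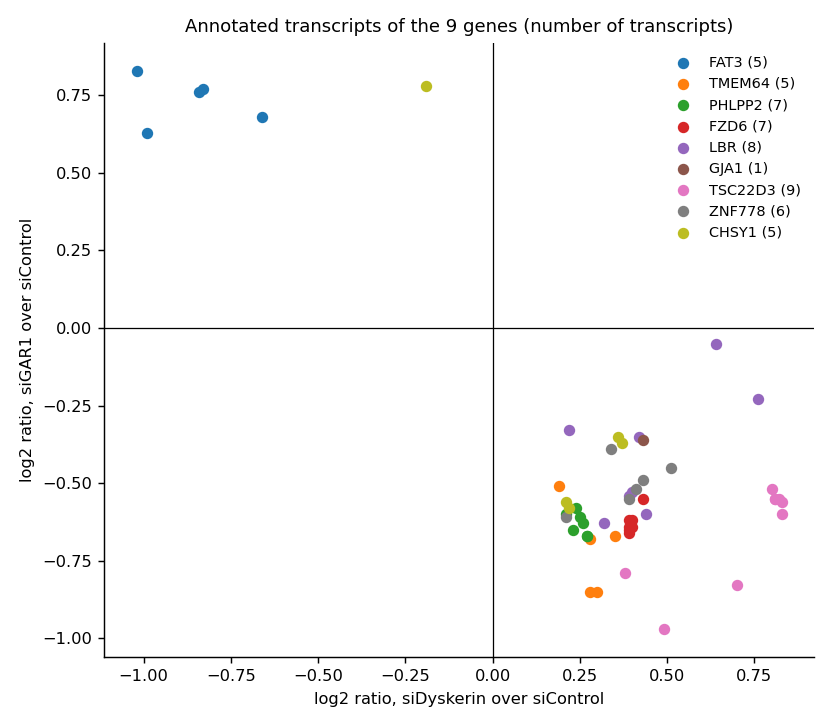
Log2 ratios of the 53 transcripts with a mean of at least 10 reads, siDyskerin over siControl (horizontal) against siGAR1 over siControl (vertical), coloured by gene. Points of 1 gene share reads. The FAT3 transcripts lie at upper left, CHSY1-205 lies near them, and all others lie at lower right.

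Within LBR, 2 of the shorter transcripts, LBR-203 and LBR-208, had another balance than the most-read one. LBR-201, the most-read transcript, had log2 ratios to siControl of 0.40 in siDyskerin and -0.53 in siGAR1. LBR-205, which is also short, had 0.42 and -0.35, and its libraries did not overlap between groups. LBR-203 had 84.5, 96.3 and 79.2 reads in siDyskerin, 38.2, 49.5 and 43.1 in siGAR1, and 49.4, 63.7 and 40.5 in siControl, with log2 ratios of 0.76 and -0.23. LBR-208 had 184, 201 and 173 reads in siDyskerin, 120, 104 and 122 in siGAR1, and 113, 130 and 115 in siControl, with log2 ratios of 0.64 and -0.05. For LBR-203 and LBR-208 the siDyskerin libraries stood above all others, while the siGAR1 and siControl libraries overlapped.

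TSC22D3 has several annotated starts, far apart on the chromosome. Its most-read transcript was TSC22D3-206, which begins at the downstream start, with 137, 163 and 171 reads in siDyskerin, 57.8, 53.5 and 67.8 in siGAR1, and 98.1, 93.3 and 73.6 in siControl. The long transcripts TSC22D3-203 and TSC22D3-204, which begin at upstream starts and share the last exons, had equal reads in every library, 115, 131 and 140 in siDyskerin, 48.5, 46.5 and 55.5 in siGAR1, and 79.6, 77.1 and 63.8 in siControl. TSC22D3-210, TSC22D3-212 and TSC22D3-214, which lie wholly in the upstream exons, were listed at 0 in all 9 libraries. A value of exactly 0 in every library may be a failed estimate as well as a lack of reads, and these were not told apart.

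The reads of FAT3 could be divided along the gene. FAT3-206, a transcript of 8 exons and 7894 bases, lies at the end of the gene and is contained with the same splicing in FAT3-201, which has 11136 further bases. Most of these bases lie upstream. FAT3-201 ends at 92896452 and FAT3-206 at 92896305, so a small part lies downstream. Reads outside FAT3-206 were not assigned to either end. FAT3-206 had 203, 207 and 198 reads in siDyskerin, 817, 719 and 667 in siGAR1, and 420, 403 and 415 in siControl. The reads counted in FAT3-201 but not in FAT3-206 were 53.2, 48.2 and 60.8 in siDyskerin, 43.8, 47.5 and 49.3 in siGAR1, and 53.3, 42.1 and 47.9 in siControl. These groups overlapped, with log2 ratios to siControl of 0.18 in siDyskerin and -0.03 in siGAR1, against -1.02 and 0.83 for FAT3-206 itself. The differences in FAT3 counts between the groups thus lay mostly in the reads of FAT3-206. The part outside FAT3-206 rests on at least 39 raw reads per library, so a small difference there would not be detectable.

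TMEM64 was the other gene of the 9 in which a pair of transcripts with the same splicing and with the lengths of the annotation could be compared. The reads of TMEM64-201 outside TMEM64-202 were 904, 915 and 868 in siDyskerin, 387, 370 and 391 in siGAR1, and 712, 715 and 805 in siControl. These groups did not overlap, and the log2 ratios to siControl were 0.27 in siDyskerin and -0.96 in siGAR1, with the signs of the whole gene. On this minus-strand gene TMEM64-202 reaches down to 90625091 and TMEM64-201 to 90621995. Most of the bases outside TMEM64-202 therefore lie at the 3′ end, whereas those of FAT3 lie mostly upstream. FAT3 and TMEM64 were thus not compared over the same end, and the difference between them was not tested.

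**Figure D4:**
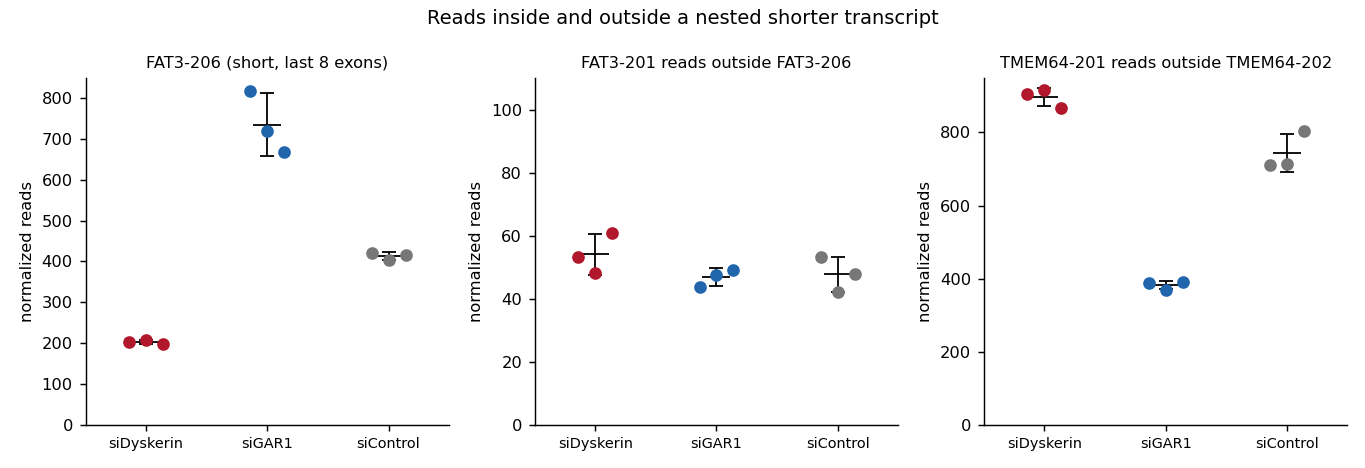
Normalized reads per library of FAT3-206 (left), of FAT3-201 outside FAT3-206 (middle) and of TMEM64-201 outside TMEM64-202 (right) in siDyskerin, siGAR1 and siControl, with mean and SD of 3 libraries. All axes start at 0 and have different scales. The left and right panels separate the groups and the middle panel does not. The bases outside the shorter transcript lie mostly upstream in FAT3 and mostly at the 3′ end in TMEM64.

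Close relatives of the 9 genes, which the selection did not use, were compared next. Those other than TSC22D2 were named after their values had been seen. FAT1, a relative of FAT3, averaged 22833 normalized counts in siDyskerin, 22407 in siGAR1 and 22819 in siControl. Its log2 fold changes were 0.00 for siDyskerin minus siControl and -0.03 for siGAR1 minus siControl. FAT4, another relative of FAT3, had 0.19 and -0.07. PHLPP1, the other PHLPP phosphatase, had log2 fold changes of 0.00 and -0.15, CHSY3, a second chondroitin synthase, 0.02 and 0.05, and GJC1, another connexin, -0.02 and 0.01. TSC22D1 had 0.22 and 0.14. The edgeR adjusted p was above 0.01 for each of these in every contrast. TSC22D2 differed between the knockdowns in the direction opposite to TSC22D3, with a log2 fold change of -0.37 ± 0.07 for siDyskerin minus siGAR1 (adjusted p = 0.00337 from edgeR).

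Companion genes of each member's pathway were then examined. Their calls, and those of chromosomal neighbours, comprise 53 gene and contrast pairs among the genes named by rule, and all 53 kept their direction in the alternative analyses that could be run, while 21 stayed past the threshold in each. List counts are read against the shares of all genes tested, which were 3.08% higher and 3.32% lower after dyskerin knockdown while GAR1 knockdown gave 1.63% and 1.79%, and the contrast of the knockdowns 2.61% and 2.78%. Of these 53, the calls given below that were lost in 8 or more of the alternatives were those of RYK in both knockdowns, LRP5, SYNE1 and PANX1 after GAR1 knockdown, CTHRC1 after dyskerin knockdown, and VANGL2, CBX1, SC5D, ENAH and CALB1 between the knockdowns.

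Among 40 genes of Wnt reception and signalling, 2 were higher (5.0%) and 1 was lower (2.5%) after dyskerin knockdown, with the same numbers after GAR1 knockdown, at an adjusted p under 0.01 from edgeR over all genes. Median log2 fold changes were 0.04 for siDyskerin minus siControl and -0.05 for siGAR1 minus siControl, against 0.00 and 0.01 over all genes tested. Of the other Frizzled receptors tested (FZD1, FZD2, FZD3, FZD4, FZD5, FZD7, FZD8 and FZD9), none passed in any contrast. FZD8 had 109 to 123 counts in siDyskerin, 66.7 to 78.3 in siGAR1 and 101 to 107 in siControl, so that its siControl libraries lay between the knockdowns as in FZD6. Its log2 difference for siDyskerin minus siGAR1 was 0.64, which did not pass (adjusted p = 0.0149 from edgeR). RNF43, a ubiquitin ligase that removes Frizzled receptors from the surface, rose in both knockdowns: it averaged 356 ± 14.3 counts in siDyskerin, 325 ± 100 in siGAR1 and 129 ± 39.4 in siControl, with log2 fold changes of 1.44 and 1.30 (adjusted p = 0.00069 and 0.00294 from edgeR). RYK, a Wnt receptor of another family, also rose in both, by 0.29 and 0.36. LRP5, a coreceptor, fell after GAR1 knockdown with a log2 fold change of -0.55. SFRP1, a secreted Wnt antagonist, passed only between the knockdowns, with a log2 fold change of 0.51 ± 0.08 (adjusted p = 0.00098 from edgeR). Against siControl its log2 fold changes were 0.28 for siDyskerin and -0.23 for siGAR1, and its siControl libraries also lay between the knockdowns.

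Of 14 planar polarity genes and partners of FAT3, none passed after dyskerin knockdown and 1 fell after GAR1 knockdown. That gene was PTK7, a receptor-like protein of planar polarity, with a log2 fold change of -0.48 ± 0.08 for siGAR1 minus siControl. PTK7 and VANGL2 were the 2 genes higher in siDyskerin than in siGAR1, by 0.39 and 0.48 on the log2 scale (adjusted p = 0.00734 and 0.00636 from edgeR). VANGL2 averaged 843 ± 62.0 counts in siDyskerin, 605 ± 39.6 in siGAR1 and 674 ± 57.8 in siControl.

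Of 29 genes of PI3K and AKT signalling, the pathway of PHLPP2, 3 fell after dyskerin knockdown (10.3%), 1 fell after GAR1 knockdown (3.45%) and none rose in either. AKT1, the kinase on which PHLPP2 acts, fell in both, with log2 fold changes of -0.33 and -0.39 (adjusted p = 0.00359 and 0.00252 from edgeR). MAPKAP1, a subunit of the mTORC2 complex that also phosphorylates AKT, fell after dyskerin knockdown alone, with 5922 ± 282 counts in siDyskerin, 8601 ± 624 in siGAR1 and 8536 ± 166 in siControl. Its difference for siDyskerin minus siGAR1 was -0.54 ± 0.07 on the log2 scale (adjusted p = 0.000197 from edgeR). PIK3CB, a catalytic subunit of PI3K, had a log2 fold change of -0.44 after dyskerin knockdown, and PIK3R2, a regulatory subunit, differed between the knockdowns by -0.57. INPP4A, a phosphatase of inositol lipids, was the 1 gene of the list that was higher in siDyskerin than in siGAR1, as PHLPP2 was, with a log2 difference of 0.30 (adjusted p = 0.00824 from edgeR) and its siControl libraries between the knockdowns. The call of INPP4A was not among those followed through the alternatives.

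The 17 genes of the glucocorticoid response and the TSC22 family included 5 that were lower in siDyskerin than in siGAR1 (29.4%) and 1 that was higher (5.88%), at an adjusted p under 0.01 from edgeR. Their median log2 difference for siDyskerin minus siGAR1 was -0.22, where TSC22D3 had 1.37. FKBP5, a chaperone partner and well known glucocorticoid target, was the gene that was higher in siDyskerin than in siGAR1. It had 2269, 2496 and 2278 counts in siDyskerin, 1690, 1703 and 1844 in siGAR1, and 2618, 2742 and 2767 in siControl, and fell after GAR1 knockdown by 0.63 on the log2 scale (adjusted p = 0.000112 from edgeR). After dyskerin knockdown FKBP5 had a log2 fold change of -0.21, which did not pass. FKBP4, another chaperone partner of steroid receptors, and ERRFI1, an inhibitor of the EGF receptor, were lower in siDyskerin than in siGAR1, with log2 differences of -0.34 and -0.40.

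Of 24 genes of chondroitin and heparan sulfate synthesis, 3 rose (12.5%) and 1 fell (4.17%) after dyskerin knockdown, while GAR1 knockdown gave 1 that rose and 1 that fell (4.17% each). CHPF, the chondroitin polymerizing factor that works with CHSY1, fell after dyskerin knockdown: it had 1011, 835 and 905 counts in siDyskerin, 1775, 2030 and 1767 in siGAR1, and 2082, 1849 and 1920 in siControl. Its log2 fold change was -1.09 ± 0.09 for siDyskerin minus siControl (adjusted p = 5.25e-06 from edgeR) and -0.07 for siGAR1 minus siControl. CHPF and CHSY1 thus differed in opposite directions between the knockdowns. CSGALNACT2, which starts chondroitin chains, had log2 fold changes of 1.02 in both knockdowns, and B3GAT3, which builds the linker to the core protein, fell after GAR1 knockdown with -0.62 ± 0.10 (adjusted p = 0.00141 from edgeR). DSE, which converts chondroitin to dermatan sulfate, rose after dyskerin knockdown by 0.34 on the log2 scale.

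LBR belongs both to the inner nuclear membrane and to cholesterol synthesis. Of 18 other genes of the lamina and inner membrane, 1 rose and 1 fell after dyskerin knockdown and 1 rose after GAR1 knockdown. SYNE1, which links the nucleus to the cytoskeleton, rose in both with log2 fold changes of 0.82 and 0.44, and TMPO, a lamina-associated protein, fell after dyskerin knockdown with -0.30. CBX5, a heterochromatin protein that binds LBR, was lower in siDyskerin than in siGAR1, with a log2 difference of -0.37 ± 0.06, and CBX1 was higher, with 0.28 ± 0.06 (adjusted p = 0.00154 and 0.00991 from edgeR). Of 24 genes of cholesterol synthesis, 2 rose after dyskerin knockdown, 2 fell after GAR1 knockdown and 3 were higher in siDyskerin than in siGAR1 (12.5%), with none lower. The 3 were LSS, DHCR7 and SC5D, enzymes of the sterol steps of the pathway, with log2 differences of 0.48, 0.40 and 0.30. The median of the 24 for siDyskerin minus siGAR1 was 0.13, against 0.00 over all genes.

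Of 12 connexins, pannexins and junction partners of GJA1, 1 rose in each knockdown and none fell. PANX1, which forms channels of a related type, had 4202, 4447 and 4244 counts in siDyskerin, 3786, 3735 and 3538 in siGAR1, and 2976, 2959 and 2983 in siControl, with log2 fold changes of 0.53 and 0.31 (adjusted p = 7.47e-05 and 0.00707 from edgeR). The companions of ZNF778 were TRIM28 and its partners and every tested gene whose symbol begins with ZNF, not all of which have a KRAB domain. Among these 518, 8 rose and 2 fell after dyskerin knockdown (1.54% and 0.386%). GAR1 knockdown gave 9 that rose and 2 that fell (1.74% and 0.386%). Over all genes, dyskerin knockdown gave 3.08% and 3.32%, and GAR1 knockdown gave 1.63% and 1.79%. ZNF367 rose in both, with log2 fold changes of 0.76 and 0.91, and ZNF114 was lower in siDyskerin than in siGAR1, with -0.83 ± 0.11 (adjusted p = 0.000277 from edgeR). No gene in any of the 9 companion lists passed the adjusted p in both knockdowns with opposite direction.

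**Figure D5:**
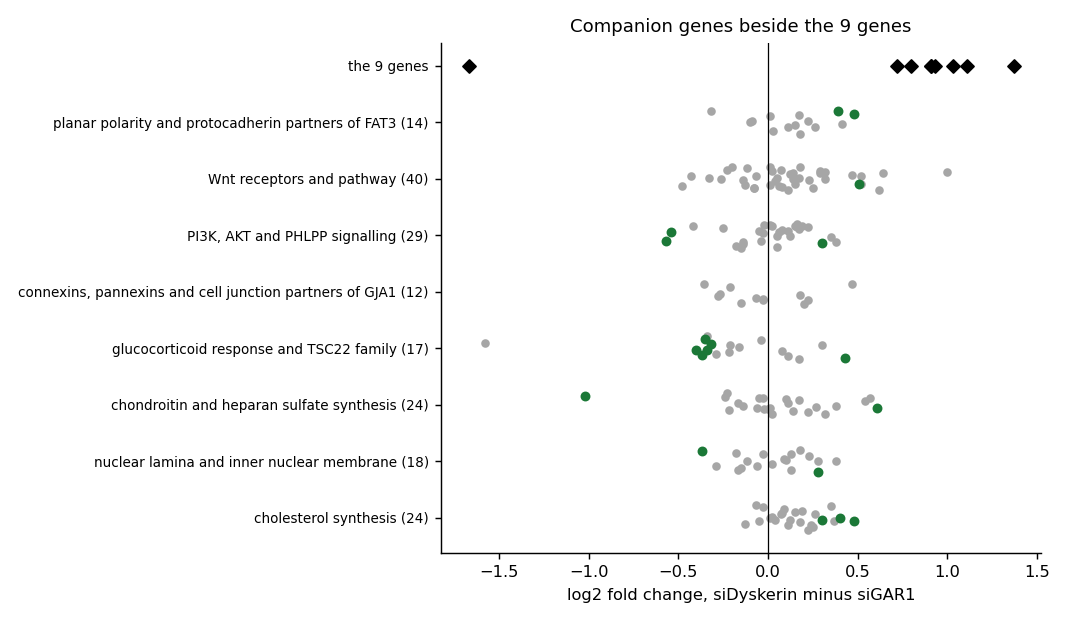
Log2 fold changes for siDyskerin minus siGAR1 of the 9 genes (top, diamonds) and of the genes in 8 companion lists, with the number tested in parentheses. Green points passed an adjusted p under 0.01 from edgeR and grey points did not. The 9 genes were selected on these contrasts and lie at the edges for that reason.

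Chromosomal neighbours were compared in the same way. The nearest tested protein-coding gene on each side gave 18 neighbours. In none did the siControl libraries all lie between those of the knockdowns. Over all genes tested, this arrangement was held by 0.927% with siDyskerin highest and by 0.775% with siDyskerin lowest. At shares this small, finding none among 18 cannot tell neighbours from other genes. Against siControl, 1 neighbour rose and 1 fell in siDyskerin and none passed in siGAR1, at an adjusted p under 0.01 from edgeR. Of all genes tested, 3.08% were higher and 3.32% lower in siDyskerin, with 1.63% and 1.79% in siGAR1. These counts of 1 or none among 18 are too small to set neighbours apart from these shares. In the contrast of the knockdowns, 1 neighbour was higher and 3 were lower in siDyskerin than in siGAR1. Over all genes tested the shares were 2.61% and 2.78%. The 3 were AP1G1, SLC36A4 and CALB1, and the call of CALB1 was lost in 12 of 14 alternatives. Whether neighbours differ from other genes in this contrast was not tested. AP1G1, which lies 4.3 kb from PHLPP2 and encodes a subunit of a clathrin adaptor, had 14425, 14526 and 14388 counts in siDyskerin, 18058, 17815 and 18098 in siGAR1, and 18289, 17589 and 17251 in siControl. It fell after dyskerin knockdown by 0.29 on the log2 scale (adjusted p = 0.00204 from edgeR), where PHLPP2 was higher. AP1G1 was also lower in siDyskerin than in siGAR1, with a log2 difference of -0.32 (adjusted p = 0.00165 from edgeR). SLC36A4, 248 kb from FAT3, was lower in siDyskerin than in siGAR1, with a log2 difference of -0.47 ± 0.09 (adjusted p = 0.00509 from edgeR), the same sign as FAT3. ENAH, 57.8 kb from LBR, was higher in siDyskerin than in siGAR1, with 0.28 ± 0.06 (adjusted p = 0.00764 from edgeR). CTHRC1 and CALB1, next to FZD6 and TMEM64, also passed in 1 contrast each but averaged at most 71.5 and 17.3 counts in any group.

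Across the 9 libraries the log2 CPM of the 8 genes that were higher in siDyskerin correlated with each other at 0.90 to 0.99, which describes genes chosen for this pattern and libraries of 3 groups. The protein-coding genes most like the mean standardized profile of these 8 were ALDH1L2, VAT1L, PHGDH, DDR2 and RSPRY1, with Pearson's r of 0.995, 0.993, 0.982, 0.981 and 0.979 over 9 libraries. VAT1L had 567, 603 and 593 counts in siDyskerin, 324, 328 and 327 in siGAR1, and 474, 448 and 433 in siControl. DDR2, a collagen receptor, had 3066, 3040 and 3076 counts in siDyskerin, 1689, 1823 and 1917 in siGAR1, and 2475, 2683 and 2572 in siControl. Both kept the siControl libraries between the knockdowns, which largely follows from picking genes by likeness to this profile. Most like FAT3 were CRIM1, KANSL2, ZFP82, MAP3K4 and MTMR9, with r of 0.988, 0.986, 0.979, 0.978 and 0.974. Their differences were smaller than that of FAT3: CRIM1, a membrane protein that binds bone morphogenetic proteins, had a log2 difference of -0.57 for siDyskerin minus siGAR1, and MTMR9 had -0.69.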

How the data were processed

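Nuclear RNA of the 9 libraries was depleted of ribosomal RNA and made into CORALL Total RNA-seq libraries. Per the submitters' processing notes, FastQC 0.11.9, Trim Galore 0.6.4, Bowtie2 2.4.1, STAR 2.7.0e, Picard and Salmon 1.2.0 were used on GRCh38, and the study's methods name GENCODE 27. The authors deposited, for each library, an estimated count and the TPM of each transcript. All but 8 count values were whole, and in 1529 nested pairs of transcripts with the same splicing (1185 genes) 0 of 13761 values were smaller for the longer one, so the counts are not expectations that split shared reads: these enter every compatible transcript.

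Transcript identifiers were matched without version to GENCODE 44, which placed 195887 of 200401 transcripts in 58425 genes. Unmatched transcripts held 3.69 to 3.84% of reads and were left out. Counts were summed per gene, in which shared reads count more than once, and rounded. Libraries held 48838756 to 90698675 summed transcript reads, a total that also counts shared reads more than once and so does not give the depth. The common biological coefficient of variation was 0.0886. Genes passing filterByExpr (18444, of which 14175 protein-coding) were tested with edgeR 4.0.16 (TMM, quasi-likelihood F-test, robust, all 9 libraries, no covariates; limma 3.58.1, R 4.3.3) and adjusted by Benjamini-Hochberg over all genes. A call needed an adjusted p under 0.01, and the counts of called genes in the closing section an absolute log2 fold change above 1 as well. Log2 CPM used a prior count of 2. The fit was tested on simulated data.

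The members and the gene lists were chosen with earlier results of these data known. Named genes were the 9 members, DKC1 and GAR1, up to 4 genes of each companion list with the smallest p among those called, 2 neighbours of each member, and 5 genes most like each profile among those averaging at least 1 log2 CPM. The paralogues FAT1, FAT4, PHLPP1, CHSY3, GJC1 and TSC22D1 were named after their values had been seen. So were the other Frizzled genes, INPP4A, CNN1, PCBP4 and PLCH1. Motif searches covered 250 bases before each RefSeq start. Alternatives were DESeq2 1.42.0, no low-count filter, relative log expression factors, lengthScaledTPM counts, the transcript with the most reads, protein-coding transcripts only, only the groups compared, a replicate block, and leaving out each library. Tables were handled in Python 3.11.15 with pandas 2.3.3 and plots drawn with matplotlib 3.10.9.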

Additional observations from a re-analysis of the deposited data

How the results depend on the processing

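All 27 log2 fold changes of the 9 genes kept their direction in all 17 alternatives, and 452 of 459 values moved by less than the SD within groups. The other 7 moved further, 6 of them with lengthScaledTPM counts (FAT3 -1.55 for siDyskerin minus siGAR1, against -1.67) and 1 without siGAR1 replicate 1 (FAT3 0.70 for siGAR1 minus siControl, against 0.78). The count of genes past the adjusted p in both knockdowns with opposite direction was 11 with edgeR, 35 with DESeq2, 7 with lengthScaledTPM counts, 21 with no low-count filter and 20 with the transcript with the most reads. Leaving out 1 library at a time it was 3 to 13: 5 without siControl replicate 2, 4 without siControl replicate 3, 3 without siDyskerin replicate 2, 5 without siDyskerin replicate 3, 7 without siGAR1 replicate 1 and 6 without siGAR1 replicate 2. TMEM64 was lost from it in all 9 of these runs. The genes called, which also needed a log2 change above 1 in size, were 173 for siDyskerin minus siControl, 52 for siGAR1 minus siControl and 133 for siDyskerin minus siGAR1. With no low-count filter they were 347, 154 and 282 in the same order, and lengthScaledTPM counts gave 34 for siGAR1 minus siControl. Leaving out 1 library gave 127 to 194, 34 to 55 and 81 to 153, with 87 without siDyskerin replicate 1 and 81 without siGAR1 replicate 1 for siDyskerin minus siGAR1, and 34 without siGAR1 replicate 2 for siGAR1 minus siControl. The causes were not tested.

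The replicate numbers did not pair the samples: deviations of same-numbered libraries correlated at -0.0724 to 0.104. With the replicate number as a block, 176, 48 and 128 genes were called in the same order, and 11 genes passed in both knockdowns with opposite direction, 7 of them among the 9 genes (without TMEM64 and TSC22D3).

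Of the counts of companion genes past the adjusted p, 327 of 459 stayed within 1.5 times under the alternatives and 132 did not. Most of these counts are small. For the list of ZNF778 they covered TRIM28 and its partners but not the genes whose symbol begins with ZNF. Calls that held in every alternative included CHPF, CSGALNACT2, MAPKAP1, B3GAT3, SFRP1 and FKBP5 after GAR1 knockdown. Few reads limit the part of FAT3-201 outside FAT3-206, which had as few as 39 raw reads in a library.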
